A study of Homo sapiens with 2 samples.

Results

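The miR-30 family comprised 5 of the 1001 probes on the array, those for the mature 5p strands miR-30a-5p (MIMAT0000087), miR-30b-5p (MIMAT0000420), miR-30c-5p (MIMAT0000244), miR-30d-5p (MIMAT0000245) and miR-30e-5p (MIMAT0000692). The probes were taken by their miRBase accessions. The rule used no measured value, but the family was picked with earlier results of these data known. All 5 had an intensity on both arrays. The samples came from Huh7, an established human hepatocellular carcinoma line, with 1 array for cells labelled control and 1 for cells exposed to 10 µM Y27632, a small-molecule kinase inhibitor, for 12 hours. The cells were kept in serum-supplemented Dulbecco's medium. The control's title gives neither a vehicle nor a harvest time, so a difference in either cannot be told apart from the treatment. Neither condition was repeated, so no value has an error between replicates, nothing was tested, and every difference below is between these 2 arrays.

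A mature microRNA is the short strand cut from a hairpin precursor. Loaded into an Argonaute protein, it guides that protein to messenger RNAs, mainly by pairing of its seed, bases 2 to 8 from the 5′ end, and lowers their stability and translation. The miR-30 paralogs share a seed and can therefore reach overlapping sets of messenger RNAs, while the bases after it differ. In liver biology the family is known from zebrafish, where miR-30a is needed for bile duct formation, and from cultured mouse hepatocytes, where miR-30 represses Snail1, a transcription factor that drives epithelial cells towards a mesenchymal state.

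The mature sequences are shown because they set how far a hybridisation probe can tell the paralogs apart. RefSeq (GRCh38.p14) gave sequences for 3 of the 5 members, printed 5′ to 3′ with the seed in capitals.
miR-30a-5p: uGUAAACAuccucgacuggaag
miR-30c-5p: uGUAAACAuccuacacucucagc
miR-30e-5p: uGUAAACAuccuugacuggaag
These 3 were also the only names with the seed GUAAACA among the 2370 mature human miRNA names in that table, a share of 0.127%. The table had no entry for miR-30b-5p or miR-30d-5p, so this count leaves them out and is not the full number with the seed. The 3 printed sequences are identical over their first 12 bases. Counted from 1 at the 5′ end, miR-30a-5p and miR-30e-5p differ by the single substitution C13U (miR-30a-5p base first), so 21 of 22 positions match. MiR-30c-5p matches each of them at 17 of the 22 shared positions. Relative to miR-30a-5p its substitutions are C13A, G14C, G18C, G19U and A20C. The probe sequences of the array were not used here, and cross-hybridisation between paralogs was not tested.

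Each member is encoded near another member (GRCh38.p14). The mature miR-30a-5p lies at chr6:71403595-71403616 on the minus strand in MIR30A, and MIR30C2 is 26519 bases away on the same chromosome, both overlapping no other gene of the annotation table. The mature miR-30e-5p lies at chr1:40754371-40754392 on the plus strand in MIR30E, 2837 bases from MIR30C1, and both hairpins are inside the span of NFYC, the gene for a subunit of the CCAAT-binding factor NF-Y. The table gives gene spans only, so whether a hairpin is in an intron or an exon was not determined.

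One member has 2 sources. MiR-30c-5p is encoded at chr1:40757300-40757322 (plus strand, MIR30C1) and at chr6:71377003-71377025 (minus strand, MIR30C2). The 2 hairpins are shown with the shared mature strand in capitals, which is the strand that a probe for miR-30c-5p is meant to read.
MIR30C1: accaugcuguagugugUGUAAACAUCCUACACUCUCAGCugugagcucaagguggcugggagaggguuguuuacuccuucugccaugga
MIR30C2: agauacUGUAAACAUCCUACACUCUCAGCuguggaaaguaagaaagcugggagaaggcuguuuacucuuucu
The mature strand is the same in both, so the intensity of miR-30c-5p cannot be split between chromosomes 1 and 6.

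The comparison asked whether the paralogs read differently after Y27632. All 5 read slightly lower on the Y27632 array as deposited, by 0.612% to 20.7%, and none reached a difference of 1.5-fold. That direction was not kept under every scaling: 4 of the 5 were below 0 after a lowess correction, and 2 of the 5 after quantile normalization, where their median was 0. As deposited, the median of the 5 log2 ratios (Y27632 over control) was −0.07, with a range from −0.34 for miR-30a-5p to −0.01 for miR-30c-5p and a mean of −0.12 ± 0.13 (SD across the 5 members, which are not replicates). No member was at least 2-fold different, a limit that 0.385% of the 260 probes of the brighter 50% passed in either direction, and 1.5-fold was passed by 3.46% of them. Against those shares, a count of 0 of 5 sets the members apart from other probes in no way. A ratio below 0 was common on this pair of arrays: it was found for 55.8% of the brighter 50% and for 57.7% of the 130 brightest probes, so the shared direction of the 5 is read only as a description.

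MiR-30b-5p and miR-30d-5p gave almost the same readings on both arrays. Their genes, MIR30B and MIR30D, are 4268 bases apart on chromosome 8, inside the span of ZFAT, a zinc-finger gene. MiR-30b-5p read 188.8 without and 180.2 with Y27632 (log2 ratio −0.07). MiR-30d-5p read 188.5 without and 181.9 with Y27632 (log2 ratio −0.05). Their log2 ratios differed by 0.016, the smallest difference of the 10 possible pairs of members in the deposited values. After quantile normalization this pair was no longer the closest: miR-30b-5p and miR-30c-5p were both at 0 and miR-30d-5p at 0.08. A link between the position of the genes and the readings was not tested. In the order of probe intensities, miR-30b-5p ranked 45 on both arrays, and miR-30d-5p ranked 46 in the control and 44 after treatment. Ranks say where a reading lies in the range of the array and do not rank miRNAs by abundance, because probes differ in binding and labelling.

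MiR-30c-5p, read jointly from its 2 genes, had the smallest difference between the arrays as deposited. After a lowess correction miR-30b-5p (log2 ratio −0.03) and miR-30d-5p (−0.01) were nearer to 0 than miR-30c-5p (0.03), and after quantile normalization miR-30b-5p and miR-30c-5p were both at 0. MiR-30c-5p read 98.1 without and 97.5 with Y27632, a ratio of 0.994 and a log2 ratio of −0.009. Its rank was 63 on both arrays. The values are deposited with 1 decimal, and rounding alone allows log2 ratios from −0.010 to −0.007 for this probe. The other probes within 1.5-fold of its brightness, 33 in number, had ratios with quartiles of −0.14 and 0.08 around a median of −0.03.

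MiR-30e-5p, the partner of MIR30C1 on chromosome 1, read 60.0 without and 54.7 with Y27632. Its log2 ratio was −0.13, and its rank 85 in the control and 87 after treatment. That lies 0.12 below the log2 ratio of miR-30c-5p, but the genes of this pair cannot be compared directly, since miR-30c-5p also comes from chromosome 6. Of 34 other probes within 1.5-fold of its brightness, 7 had a lower log2 ratio, and the quartiles of the 34 were −0.08 and 0.11.

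MiR-30a-5p stood lowest of the 5 in its ratio. It read 38.1 without and 30.2 with Y27632, 20.7% lower, a log2 ratio of −0.34. Its rank was 106 in the control and 117 after treatment, the largest shift in rank among the members. Ranks lie closer together among dimmer probes, so this shift depends on its brightness as well as its ratio. In the brightest 25% its ratio was number 12 from the lowest of 130. It also gave the dimmest reading of the 5, and ratios spread more among probes of its brightness. The 47 other probes within 1.5-fold of it had an SD of log2 ratios of 0.30 and quartiles of −0.29 and 0.13, and 10 of them had a lower ratio. Around the bright pair miR-30b-5p and miR-30d-5p the corresponding SD was 0.14 over 19 probes. The part of low signal in the ratio of miR-30a-5p was not tested.

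**Figure D1:**
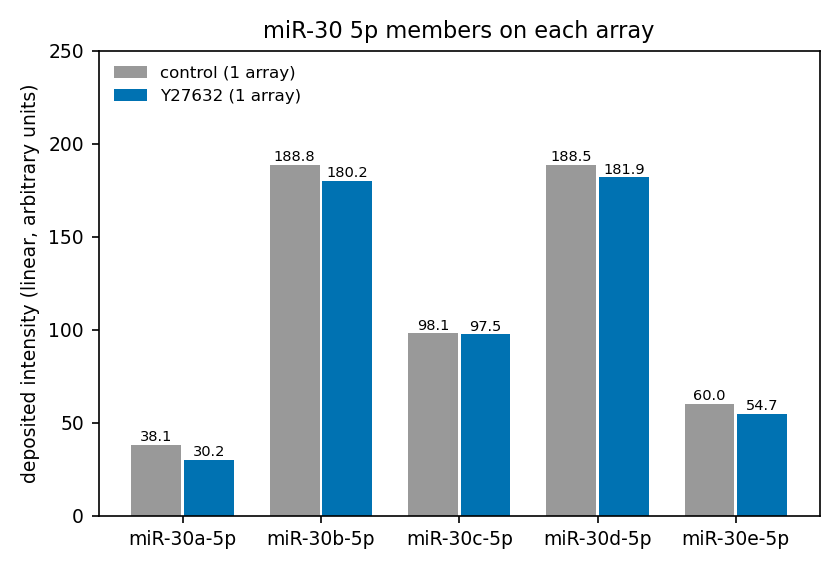
Deposited intensity (linear, arbitrary units, vertical axis) of each miR-30 5p member on the control array (grey) and the Y27632 array (blue), 1 array each, so there are no error bars. The blue bar is the lower of each pair, from 98.1 against 97.5 for miR-30c-5p to 38.1 against 30.2 for miR-30a-5p; heights of different members are readings of different probes and do not rank abundance.

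Among the members with a printed sequence, the pair that differs by 1 base was not the pair with the closest ratios. No sequence was available for miR-30b-5p and miR-30d-5p, so pairs holding either were not compared by sequence. MiR-30a-5p and miR-30e-5p, distinguished only by C13U, differed by 0.20 in log2 ratio (−0.34 against −0.13). The pair miR-30c-5p and miR-30e-5p, with 5 differing bases of 22, differed by 0.12. The widest pair was miR-30a-5p and miR-30c-5p, with the same number of differing bases and a difference of 0.33. For scale, the interquartile range of single log2 ratios over the 130 brightest probes was 0.21. A difference between the ratios of 2 unrelated probes spreads more widely than a single ratio, so 0.21 is no limit for these differences. Single ratios also spread more at the brightness of miR-30a-5p (SD 0.30 over 47 other probes). Among all pairs of members, sequenced or not, every pair with a difference of at least 0.20 held miR-30a-5p. The 6 pairs without miR-30a-5p differed by 0.016 to 0.12. Differences between 2 probes' ratios are the same under any single scaling factor per array.

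Subtracting each array's lowest listed intensity (2.3 in the control and 2.7 after treatment) before taking logs set miR-30a-5p at a log2 ratio of −0.38 and left miR-30b-5p at −0.07. The larger value is taken from the Y27632 array, so the dimmest reading moves down most. Over all 7 alternative settings, described below, the ratio of miR-30a-5p ran from −0.40 to −0.24.

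The 5 readings summed to 573.5 without and 544.5 with Y27632, a ratio of 0.949 (log2 −0.07). The sum over all probes listed on each array, 619 in the control and 614 after treatment, was 1.05 times as high on the Y27632 array. The family's share of summed intensity was thus 0.482% in the control and 0.436% after treatment. A share of summed intensity depends on the few brightest probes of the array and is not a share of molecules.

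**Figure D2:**
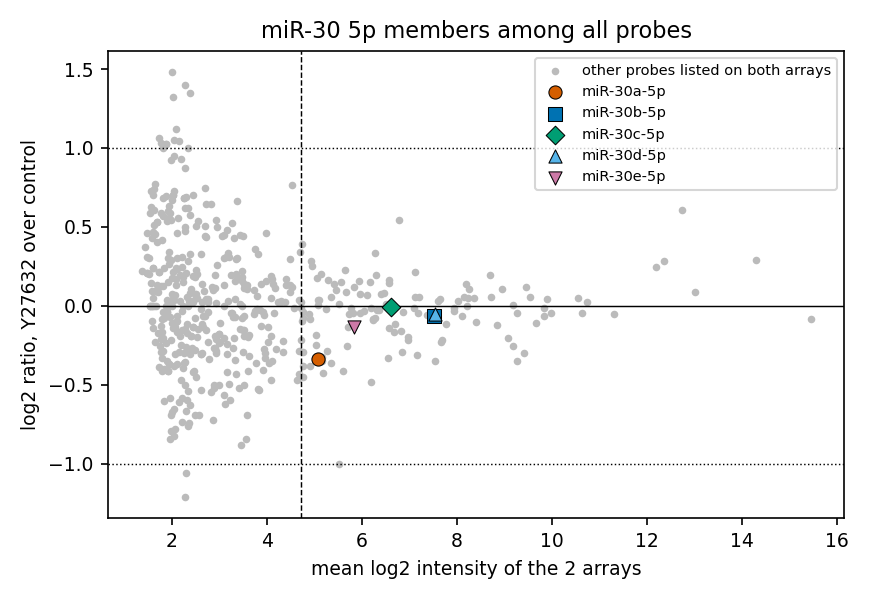
Log2 ratio of Y27632 over control (vertical axis) against mean log2 intensity of the 2 arrays (horizontal axis) for the 519 probes listed on both, 1 point per probe, with the 5 members as coloured symbols. Dotted lines mark 2-fold, and the dashed line marks the start of the brightest 25% (geometric mean intensity 26.2); all 5 members lie to its right and between −0.34 and −0.01, inside the cloud of other probes.

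All 5 members were in the brightest 25% of the probes listed on both arrays. The median log2 ratio of that set was −0.03, with quartiles of −0.14 and 0.07 and an SD of 0.21. The log2 ratios of miR-30b-5p, miR-30c-5p, miR-30d-5p and miR-30e-5p lay between those quartiles, and that of miR-30a-5p below the lower one. MiR-30e-5p was only just inside (−0.133 against a lower quartile of −0.135). Set against probes within 1.5-fold of their own brightness, both miR-30a-5p and miR-30e-5p lay below the lower quartile (−0.29 and −0.08). Of the 125 other probes in the brightest 25%, 58 (46.4%) had ratios within the span of the 5 members. Among the 255 other probes of the brighter 50%, 105 (41.2%) did. By closeness of log2 ratio over the 2 arrays, 7 of those 255 were within 0.01 of the members' median. They are not named, because their accessions are not paired with miRNA names in the tables used.

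The size of the smaller ratios depended on how the arrays were scaled to each other, while the order of the 2 lowest was the same in each setting run. Of 7 other ways of scaling or correcting the arrays, 3 (median centring, scaling to summed intensity and centring on the brightest 25%) shift all ratios alike and cannot alter their order. Under the other 4, miR-30a-5p had the lowest ratio and miR-30e-5p the next. Subtracting the lowest listed intensity takes more from the Y27632 array and lowers dim probes most. MiR-30a-5p and miR-30e-5p were the dimmest members, so that setting could hardly alter their order. Adding 3 intensity units is small beside the members' readings and could hardly alter it either. Over all 7, the ratio of miR-30a-5p ran from −0.40 to −0.24 and that of miR-30e-5p from −0.20 to −0.09. MiR-30c-5p turned above 0 under 2 of the 7 (0.03 after a lowess correction and 0.02 when centred on the brightest 25%, a shift common to all probes) and was at 0 after quantile normalization. MiR-30d-5p turned above 0 under 1, at 0.08 after quantile normalization, which set miR-30b-5p at 0.

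**Figure D3:**
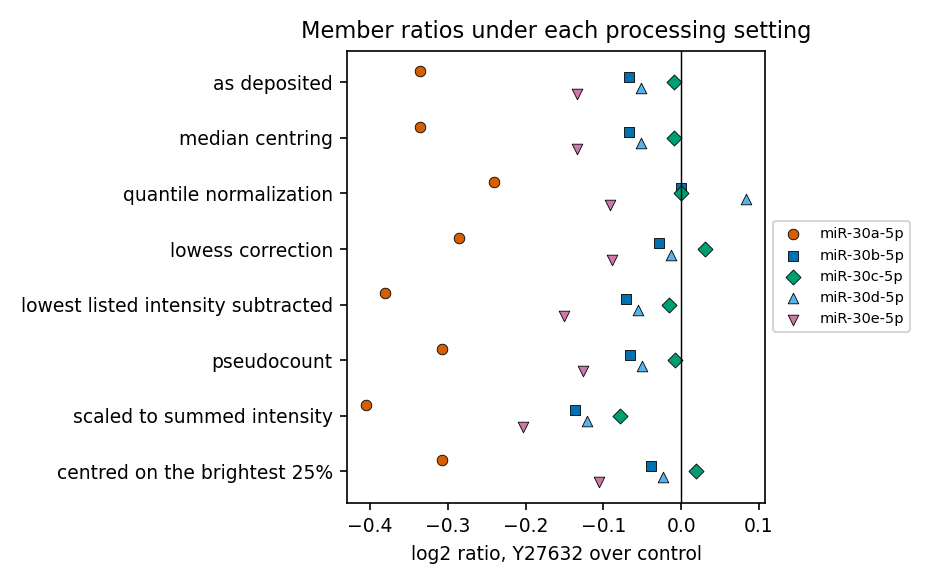
Log2 ratio of Y27632 over control (horizontal axis) of the 5 miR-30 5p members, 1 symbol each, under the deposited values and 7 alternative settings (rows). MiR-30a-5p is the leftmost symbol in every row, between −0.40 and −0.24, whereas miR-30c-5p and miR-30d-5p lie on either side of 0 depending on the row.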

How the data were processed

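MiRNA arrays were run on Huh7 RNA isolated with ISOGEN and labelled with Hy5 by a miRCURY LNA kit, per the labels' protocols. The deposited values are intensity readings, 1 per probe and array with 1 decimal. Their linear scale was inferred from the range (2.3 to 45829.6), and how they were corrected, normalized and extracted is not given in the sources used here. The number of arrays limits the precision, and spot background could not be examined. The control was identified by its title, because both samples carry the same treatment protocol.

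Members were matched by accession and named from the list that defines the family. They and the lists were chosen with earlier results of these data known. Log2 ratios used probes listed on both arrays (519 of 1001), with no pseudocount or further normalization. A probe was called at 2-fold or more within the brighter 50% by mean log2 intensity. Named miRNAs were to be the members, their opposite arms, other miRNAs with their seed and the 3 nearest in ratio. Opposite arms, the let-7 and miR-29 families and cell type markers were not evaluated, because the tables do not pair their accessions with names, so Huh7 was not checked against marker miRNAs. The comparison with probes within 1.5-fold in brightness was added after seeing the data. Sequences and positions are from RefSeq (GRCh38.p14), matched by miRNA name. The calculations were tested on simulated data with the same noise at every brightness, unlike these arrays. The check against the simulated ratios left out the subtraction of the lowest listed intensity. Python 3.11.15, numpy 2.4.6, pandas 2.3.3, statsmodels 0.14.6 and matplotlib 3.10.9 were used.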

Additional observations from a re-analysis of the deposited data

How the results depend on the processing

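Member ratios were recomputed after quantile normalization, median centring, lowess (fraction 0.4), subtraction of each array's lowest listed intensity, and addition of 3 intensity units, the arrays' average 10th percentile. Scaling to summed intensity and centring on the brightest 25% were added after seeing the data. Under these 7 the members past 2-fold stayed at 0, as they did at a 1.5-fold limit. Median centring moved no value, because the median log2 ratio was already 0.00. The median of the members ranged from −0.14 to 0, and the highest minus the lowest ratio from 0.30 to 0.37. No member's ratio moved by more than 0.21, the SD of log2 ratios in the brightest 25%. That limit is larger than the size of every member's deposited ratio except that of miR-30a-5p. A sign could therefore change within it, as for miR-30d-5p (−0.05 as deposited, 0.08 after quantile normalization). The share of all probes at least 2-fold apart was 0.385% in the brighter 50%, 3.08% with no filter on dim probes and 0.769% in the brightest 25%. At a 1.5-fold limit it was 3.46%. Leaving out replicates does not apply. No paired analysis was possible because neither condition was repeated. Since the scaling of the deposited values is unknown, the direction of miR-30b-5p, miR-30c-5p and miR-30d-5p is not settled (quantile values 0, 0 and 0.08). MiR-30a-5p and miR-30e-5p stayed below 0 under all 7. These settings rework the same unrepeated arrays, so that does not settle the direction after treatment for either.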
